A study of Mus musculus with 4 samples.

Results

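Hepatic amino acid transporters are a group of 9 genes named by symbol, out of 23920 genes in the deposited table of liver mRNA from SREBP1c wild-type (WT) and SREBP1c knockout (KO) mice. The members were Slc38a2, Slc38a3, Slc38a4, Slc7a2, Slc3a2, Slc43a1, Slc16a10, Slc1a4 and Slc6a9, listed by symbol with earlier results of these data known, and the transcript rows of each gene were summed. SREBP1c, a product of Srebf1, is a transcription factor that insulin activates in liver to switch on lipogenic genes. Mice of both genotypes were C57BL/6 males aged 12 weeks, and all went through 24 h of fasting and 12 h of refeeding. Each genotype had 2 libraries of liver tissue, and the labels give neither the allele of the KO nor whether a library came from 1 animal. Expression was given in FPKM (fragments per kilobase of transcript, scaled to the mapped fragments of the library), a unit that corrects for length, so levels of different genes were set side by side. In bulk liver, fewer cells of a type and less RNA per cell cannot be told apart.

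Hepatocytes take up amino acids from portal blood for protein synthesis, gluconeogenesis and urea formation, and the carriers are divided by substrate and by what drives transport. Sodium-coupled carriers of the SLC38 family concentrate small neutral amino acids (system A) or move glutamine, histidine and asparagine in either direction (system N). Cationic amino acids enter through SLC7 carriers, some of which need the heavy chain encoded by Slc3a2 to reach the cell surface, while facilitative carriers let branched-chain and aromatic amino acids equilibrate across the membrane.

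No member passed the threshold for a difference between KO and WT (limma on log2(FPKM + 1), Benjamini-Hochberg adjusted p under 0.05 over 9820 genes with a mean of at least 1 FPKM). In the same test 7 genes, or 0.0713% of those tested, passed, with 0.0102% higher and 0.0611% lower in KO. All 9 members reached the minimum of 1 FPKM. The median log2 difference, KO minus WT, was 0.07 over the members and 0.02 over all genes tested, with 5 members above 0 and 4 below. Both KO libraries were above both WT libraries for Slc38a2, Slc16a10 and Slc1a4, against 22.4% of all genes tested, and both were below for Slc43a1, against 16.4%. The smallest two-sided p that an exact permutation test can give in this design is 0.333, so none was used.

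Upstream sequence is shown for Slc38a2 and Slc43a1, which had the largest positive and the largest negative log2 difference among the 9 members. Each line gives the 250 bases before a RefSeq start (GRCm38.p6, the build called mm10), 5′ to 3′ on the strand of the gene. Slc38a2 is at chr15:96699729-96699978 on the minus strand and Slc43a1 at chr2:84840073-84840322 on the plus strand. Capitals mark the single motif match, a CACGTG E-box 64 to 59 bases before this RefSeq start of Slc43a1. The start lies inside the gene, whose listed range begins at 84838855, and which transcript row uses it was not determined.
Slc38a2: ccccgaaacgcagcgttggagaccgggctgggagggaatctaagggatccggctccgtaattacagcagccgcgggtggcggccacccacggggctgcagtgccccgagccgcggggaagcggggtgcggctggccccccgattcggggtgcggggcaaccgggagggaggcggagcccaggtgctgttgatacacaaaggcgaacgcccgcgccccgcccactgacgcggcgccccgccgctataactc
Slc43a1: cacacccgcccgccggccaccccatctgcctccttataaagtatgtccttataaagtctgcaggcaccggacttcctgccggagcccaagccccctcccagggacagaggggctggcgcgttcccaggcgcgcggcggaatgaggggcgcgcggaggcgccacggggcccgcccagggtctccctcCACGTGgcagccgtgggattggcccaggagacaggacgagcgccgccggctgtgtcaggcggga
Both strands were searched for a sterol element (TCACNCCAC), an E-box (CACGTG), an ATF4 composite element (TGATGNAAT), a C/EBP element (TTGCNNAA) and an HNF4A element (CAAAGTCCA). The RefSeq table held 11 such windows for 7 of the 9 members, Slc7a2 and Slc38a3 being the other two. Across these windows the E-box of Slc43a1 and a C/EBP element in 1 window of Slc6a9 were the only matches. Of 32851 mouse windows of this length, 6.02% held the E-box, 9.56% the C/EBP element, 1.05% the sterol element, 0.816% the ATF4 element and 0.384% the HNF4A element. A match describes letters, not a bound site. Sequence outside these windows was not searched, so the lack of a match holds for the windows alone.

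Mean levels over the 4 libraries ran from 1.54 FPKM for Slc43a1 to 340 FPKM for Slc38a3. Slc38a3 and Slc38a4 together made up 87.7% and 89.0% of the summed FPKM of the members in the WT libraries and 86.4% and 84.3% in the KO libraries. Slc38a3 was above Slc38a4 in every library, and the lowest Slc38a4 value, 143 FPKM, was far above the highest Slc7a2 value, 26.1 FPKM. Slc7a2, Slc38a2, Slc3a2 and Slc16a10 followed with overlapping ranges, so their order was not separated beyond the spread of the libraries. Slc6a9 lay below all of these in every library, and Slc1a4 and Slc43a1 lay lowest, with ranges that overlapped each other.

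**Figure D1:**
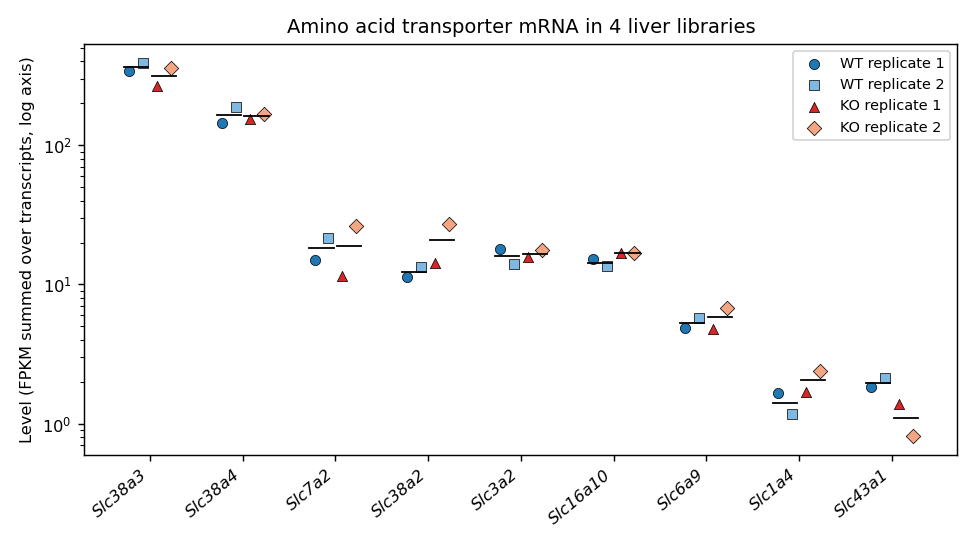
Level of each transporter (FPKM summed over transcripts, log axis) in the 2 WT and 2 KO libraries, with genes ordered by mean; symbols are single libraries and short lines are group means. Slc38a3 and Slc38a4 are at 143 FPKM or more in all 4 libraries, and Slc1a4 and Slc43a1 are at 2.41 FPKM or less in all 4.

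Among the system A carriers, Slc38a2 (chromosome 15, 96687392 to 96699728, mm10) encodes SNAT2, a carrier whose mRNA is known to rise when cells lack amino acids. It had 11.3 and 13.3 FPKM in WT, against 14.3 and 27.3 FPKM in KO, that is 12.3 ± 1.41 against 20.8 ± 9.21 (SD, n = 2 each). KO replicate 2 stood above the other libraries, while KO replicate 1 was only slightly above the higher WT library. The KO mean was 1.68 times the WT mean, and the log2 difference of 0.64 had a standard error of 0.28 and a 95% interval from −0.05 to 1.34 (limma adjusted p = 0.644). Without KO replicate 1 the difference was 1.09 and passed the threshold (limma adjusted p = 0.00804), in a fit where 3.12% of all genes passed and the lone KO library was assumed to vary like the WT libraries. Without KO replicate 2 it was 0.20 (limma adjusted p = 0.753), where 1.19% of all genes passed.

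Slc38a4 (chromosome 15, 96994816 to 97055956) encodes SNAT4, a system A carrier that is abundant in liver. Its level was 143 and 189 FPKM in WT, against 155 and 166 FPKM in KO, with both KO values inside the WT range. The log2 difference was −0.03, with a 95% interval from −0.43 to 0.36 (limma adjusted p = 0.976). Slc38a1, the other system A carrier, was near the floor, at 0.0718 to 0.155 FPKM over the 4 libraries.

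Slc38a3 (chromosome 9, 107651154 to 107668968) encodes SNAT3, the system N carrier that hepatocytes use to take up or release glutamine. It was the most abundant member, with 340 and 392 FPKM in WT, against 266 and 361 FPKM in KO. KO replicate 1 was the lowest library and KO replicate 2 lay between the WT values, so the groups overlapped. The log2 difference was −0.24 (SE 0.18, 95% interval −0.68 to 0.21, limma adjusted p = 0.798). Slc38a5, another system N carrier, was listed at 0 in all 4 libraries.

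Slc7a2 (chromosome 8, 40862341 to 40922070) encodes CAT2, a carrier of arginine, lysine and ornithine. Its values were 14.9 and 21.5 FPKM in WT, against 11.4 and 26.1 FPKM in KO. The lowest and the highest library were thus both KO, at a ratio of 2.29 between them, and the group means were nearly equal at 18.2 ± 4.67 and 18.8 ± 10.4 FPKM (SD, n = 2 each). The log2 difference was −0.04, and its 95% interval from −0.95 to 0.86 was the widest of the 9 members (limma adjusted p = 0.986). Leaving out KO replicate 2 gave −0.61 and leaving out KO replicate 1 gave 0.52. Slc7a1, which encodes the cationic carrier of most other tissues, had 0.117 to 0.141 FPKM.

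Slc3a2 (chromosome 19, 8706882 to 8723369) encodes the CD98 heavy chain, which pairs with SLC7 light chains. It had 17.9 and 13.9 FPKM in WT, against 15.8 and 17.6 FPKM in KO, with both KO values inside the WT range (log2 difference 0.07, 95% interval −0.29 to 0.43, limma adjusted p = 0.930). Its 6 light-chain partners added up to 4.55 and 3.59 FPKM in WT, against 3.18 and 3.68 FPKM in KO, so the heavy chain exceeded their sum 3.94-fold and 3.88-fold in WT, against 4.96-fold and 4.77-fold in KO. Of the partners, Slc7a7 and Slc7a8 reached the minimum for testing. Slc7a7, the light chain of the y+L carrier, had 2.15 and 1.73 FPKM in WT, against 1.30 and 1.55 FPKM in KO (log2 difference −0.28, limma adjusted p = 0.650), and Slc7a8, the light chain of the LAT2 carrier, had 1.22 and 1.03 in WT, against 1.05 and 1.18 in KO (limma adjusted p = 0.997). Slc7a5, the light chain of the LAT1 carrier, had 0.654 to 0.960 FPKM, and Slc7a11, the light chain of the cystine-glutamate exchanger, 0.00584 to 0.0162 FPKM.

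The facilitative carriers had differences of opposite sign, and neither passed the test. Slc43a1 (chromosome 2, 84838855 to 84863586) encodes LAT3, a carrier of leucine and other branched-chain amino acids. It had 1.83 and 2.12 FPKM in WT, against 1.38 and 0.818 FPKM in KO, or 1.97 ± 0.200 against 1.10 ± 0.40 (SD, n = 2 each), a 1.79-fold lower KO mean. Both KO libraries lay below both WT libraries. The log2 difference was −0.51, with a 95% interval from −0.90 to −0.13, the only interval among the 9 members that did not include 0, and it did not pass after adjustment (unadjusted p = 0.0179, limma adjusted p = 0.527). At an unadjusted p under 0.05 there were 761 genes, or 7.75% of those tested. Without KO replicate 1 the difference was −0.71, and without KO replicate 2 it was −0.32. In each of these fits the lone KO library was assumed to vary like the WT libraries. The level rested on few reads, about 106 and 111 fragments in WT, against 79 and 43 in KO, estimated from transcript length and implied depth.

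Slc16a10 (chromosome 10, 40033532 to 40142270) encodes TAT1, a carrier of the aromatic amino acids tyrosine, phenylalanine and tryptophan. Its values were 15.1 and 13.6 FPKM in WT, against 16.7 and 16.9 FPKM in KO, a KO mean 1.17 times the WT mean. Both KO libraries were above both WT libraries, and among the members this difference changed least with any library left out, from 0.14 to 0.29 around a log2 difference of 0.21 (95% interval −0.05 to 0.47, limma adjusted p = 0.685).

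The exchanger gene Slc1a4 (chromosome 11, 20302180 to 20332713) encodes ASCT1, which exchanges alanine, serine, cysteine and threonine. It had 1.66 and 1.17 FPKM in WT, against 1.68 and 2.41 FPKM in KO. KO replicate 1 and WT replicate 1 were nearly equal, so the groups were separated by a very small gap. The log2 difference was 0.33 (95% interval −0.08 to 0.74, limma adjusted p = 0.698), on about 96 to 194 fragments per library. Slc6a9 (chromosome 4, 117835258 to 117869305) encodes the glycine transporter GlyT1. Its values were 4.83 and 5.76 FPKM in WT, against 4.81 and 6.81 FPKM in KO, with WT inside the KO range (log2 difference 0.10, 95% interval −0.32 to 0.52, limma adjusted p = 0.916).

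**Figure D2:**
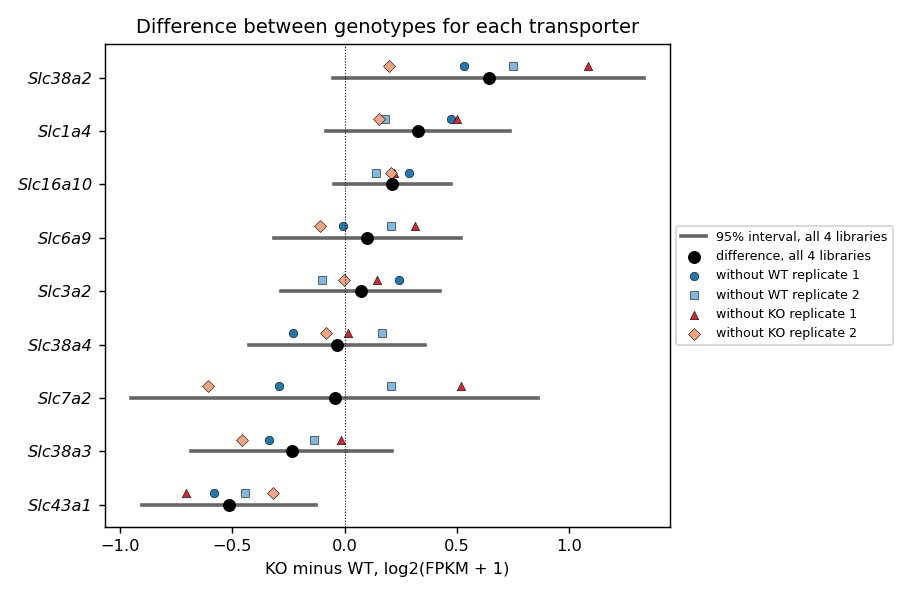
Difference between genotypes (log2(FPKM + 1), KO minus WT) for each transporter; black points and grey lines are the value and 95% interval from all 4 libraries, and small symbols above them are the values with 1 library left out. Slc43a1 alone has an interval that stays below 0 (−0.90 to −0.13), and Slc7a2 ranges from −0.61 to 0.52 with 1 library left out.

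Transcript rows were examined because 5 of the members had several, 16 rows in all for the 9 genes. Of these rows 12 reached a mean of 1 FPKM and none passed (limma, adjusted over 11494 rows, of which 0.0435% passed). In Slc7a2 the row NM_007514 carried 98.1% to 99.5% of the FPKM of the gene in every library. In Slc38a3 the row NM_001199217 carried 91.9% to 93.5%, and in Slc16a10 the row NM_001114332 carried 90.4% to 94.95%. Slc3a2 was shared more evenly, with NM_008577 at 69.0% and 76.0% in WT, against 71.7% and 76.7% in KO.

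Slc43a1 was the exception to these shares. Its row NM_001081349 had 1.60 and 1.13 FPKM in WT, or 87.2% and 53.6% of the gene, and was listed at 3e-06 and 0 FPKM in KO. The sum of its other 2 rows was 0.234 and 0.983 FPKM in WT, against 1.38 and 0.818 FPKM in KO. Of these, NM_001083809 had 0.983 FPKM in WT replicate 2 and 0.957 in KO replicate 1 and almost none elsewhere, so the groups overlapped. NM_024497 had 0.233 and 0.000104 FPKM in WT, against 0.426 and 0.817 FPKM in KO, with both KO libraries above both WT libraries. All 3 rows were under the minimum of 1 FPKM. In a fit of the rows without a minimum, added after the data were seen, NM_001081349 differed by −1.24 (unadjusted p = 0.00266, limma adjusted p = 0.343) and NM_024497 by 0.54 (unadjusted p = 0.0727, limma adjusted p = 0.703). How the program that computed FPKM shared fragments among these rows was not tested.

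**Figure D3:**
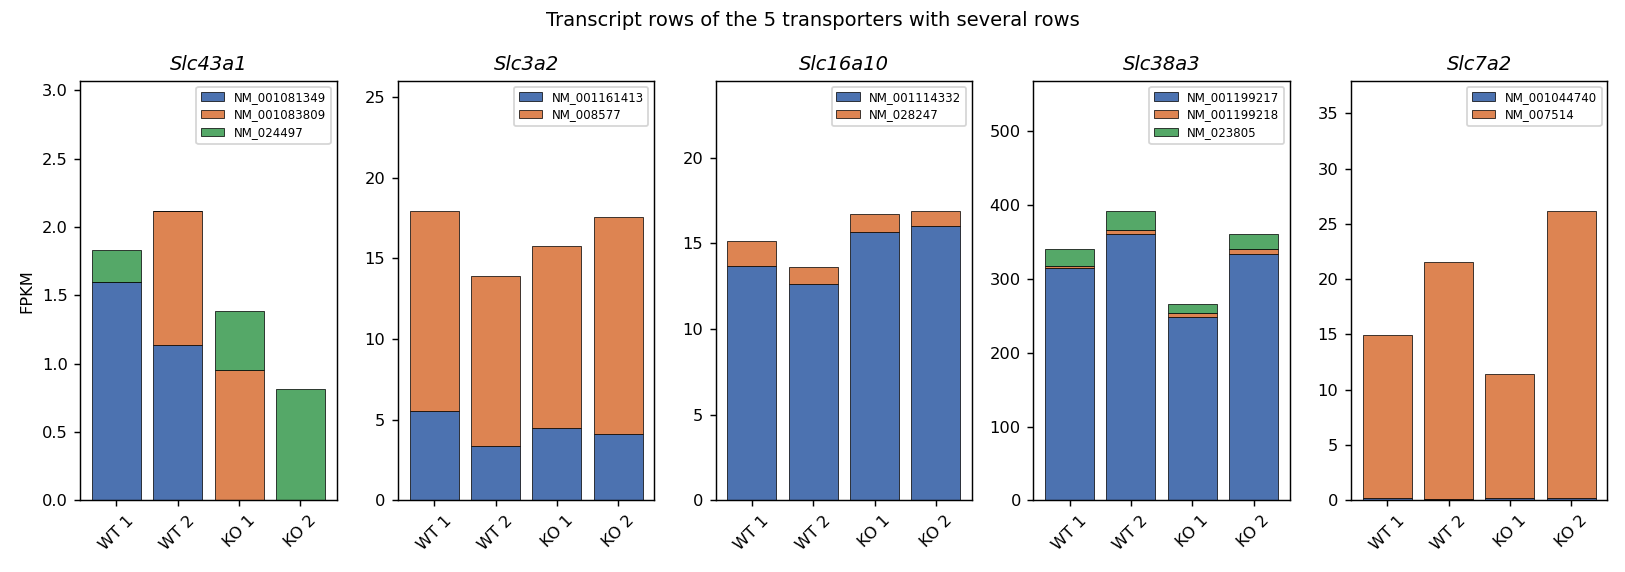
Transcript rows (FPKM, stacked bars) of the 5 transporters with several rows, by library; each panel has its own axis from 0. In Slc43a1 the row NM_001081349 leads in both WT libraries, at 1.60 and 1.13 FPKM, and is listed at or near 0 in KO, where a different row leads in each library, while the leading rows of the other 4 genes keep most of each bar.

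The 2 KO libraries are described one by one here, with no test, since each is a single library. KO replicate 2 was the highest library for 5 of the 9 members, Slc7a2, Slc38a2, Slc16a10, Slc1a4 and Slc6a9, while 31.6% of all genes tested were highest there. KO replicate 1 was the lowest library for 3 of the 9, Slc7a2, Slc38a3 and Slc6a9, while 23.4% of all genes tested were lowest there. Some of these ranks were near ties. Slc6a9 had 4.81 FPKM in KO replicate 1 and 4.83 in WT replicate 1, and Slc16a10 had 16.7 and 16.9 in KO. Relative to the WT mean, the median member was at 0.22 (log2) in KO replicate 2 and at −0.08 in KO replicate 1, against 0.02 and 0.01 over all genes tested. Genes of the acute phase, the liver's response to inflammatory signals, were also highest in KO replicate 2, in 23 of 23 tested. Their summed level was 15417 and 19086 FPKM in WT, against 13044 and 33712 FPKM in KO. None of the 23 passed the test between genotypes. The smallest p was that of Cebpd, a C/EBP factor gene of the acute phase, with 1.59 and 2.18 FPKM in WT, against 3.06 and 3.76 FPKM in KO (log2 difference 0.62, limma adjusted p = 0.405). Cebpb, which encodes a related factor, had 45.9 and 53.5 FPKM in WT, against 72.03 and 128 FPKM in KO (0.94, adjusted p = 0.484). For both factors the KO libraries lay above the WT libraries. Of the 23 genes this held for 5, against 22.4% of all genes tested, and the reverse held for 0, against 16.4%. The metallothionein gene Mt2 had 3.74 and 3.29 FPKM in WT, against 8.67 and 230.3 FPKM in KO (adjusted p = 0.627), and Saa3, a serum amyloid A gene, 3.66 and 3.40 in WT, against 4.01 and 20.5 in KO (adjusted p = 0.698). Hp, which encodes haptoglobin, was the most abundant of the list at 2841 and 3860 FPKM in WT, against 2453 and 7039 FPKM in KO (adjusted p = 0.900). Saa1, another serum amyloid A gene, had 65.8 and 87.3 FPKM in WT, against 34.7 and 1244 FPKM in KO (adjusted p = 0.853). Markers of Kupffer cells and macrophages were likewise highest there in 12 of 12 tested, with a summed level of 221 and 177 FPKM in WT, against 194 and 305 FPKM in KO and none at 0. Endothelial markers were highest in KO replicate 2 in 8 of 9 tested, and lymphocyte and neutrophil markers in 2 of 2. Stellate cell and fibroblast markers were so in 3 of 9, and cholangiocyte markers in 0 of 4. The part of any of these lists in the transporter values was not tested.

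**Figure D4:**
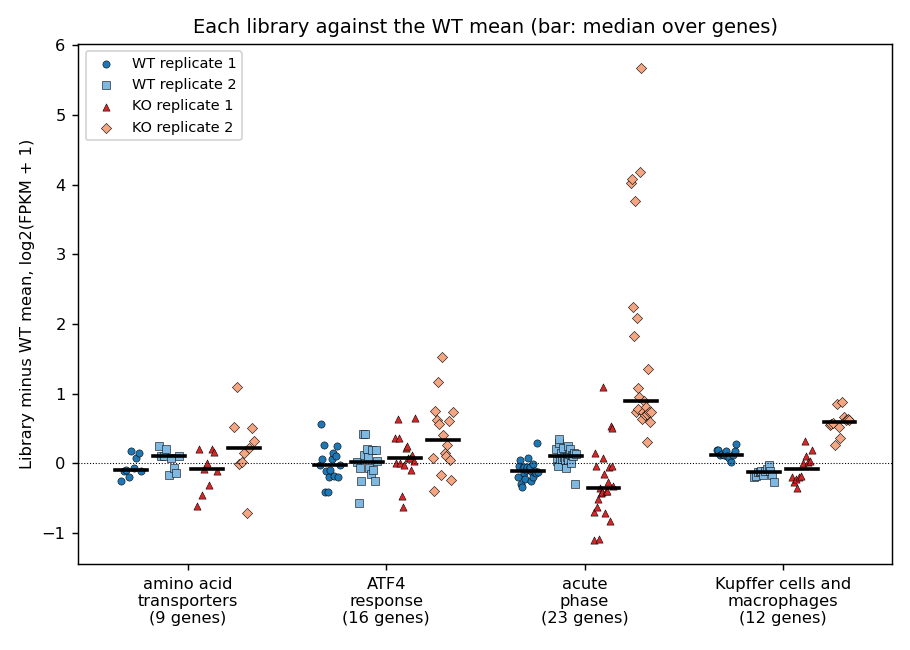
Each library minus the WT mean on the log2(FPKM + 1) scale for transporters, ATF4 response genes, acute phase genes and Kupffer cell and macrophage markers; points are genes and bars are medians over the genes of a list. KO replicate 2 has a median of 0.22 for the transporters and 0.89 for acute phase genes, where KO replicate 1 has −0.08 and −0.36.

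Genes of the response to amino acid shortage, several of which act with or under the transcription factor ATF4, were described beside the members because Slc38a2, Slc3a2, Slc1a4 and Slc6a9 are known targets of that response. Of 20 listed genes 16 were tested and none passed in either direction. Their median log2 difference was 0.21, with 13 above 0, against 5361 of 9820 genes tested. KO was above WT in every pairing of libraries for 6 of the 16, against 22.4% of all genes tested, and below for none, against 16.4%. Atf4 itself had 56.9 and 58.6 FPKM in WT, against 74.9 and 61.2 FPKM in KO (log2 difference 0.23, limma adjusted p = 0.732). Gdf15, a stress-induced hormone gene, had 3.96 and 4.15 FPKM in WT, against 6.95 and 7.38 FPKM in KO (0.69, adjusted p = 0.165), and Atf5 had 290 and 263 in WT, against 432 and 466 in KO (0.70, adjusted p = 0.246). Ddit3, which encodes CHOP, had 9.27 and 6.19 FPKM in WT, against 10.07 and 12.2 FPKM in KO (0.49, adjusted p = 0.627), and Sesn2, a leucine sensor gene, 1.18 and 1.47 in WT, against 1.69 and 2.07 in KO (0.31, adjusted p = 0.644). Asns, asparagine synthetase, had a difference of the other sign, with 3.44 and 6.95 FPKM in WT, against 2.84 and 4.30 FPKM in KO (−0.40, adjusted p = 0.786).

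Enzymes that use the imported amino acids were listed as the step after transport. Of 33 genes 30 were tested and none passed, with a median log2 difference of −0.10, and 20 below 0, against 4459 of 9820 genes tested. KO was below WT in every pairing of libraries for 13 of the 30, against 16.4% of all genes tested, and above for 4, against 22.4%. The smallest p in this list belonged to Cps1, the mitochondrial enzyme that feeds ammonia into the urea cycle, with group means of 620 ± 1.22 FPKM in WT, against 381 ± 26.7 FPKM in KO (SD, n = 2 each; difference −0.70, SE 0.13, on the log2 scale, limma adjusted p = 0.246). Arg1, which splits the arginine that CAT2 carries, had 717 and 937 FPKM in WT, against 506 and 627 FPKM in KO (limma adjusted p = 0.594). Asl, argininosuccinate lyase, had 304 and 332 in WT, against 266 and 211 in KO (adjusted p = 0.600). Gls2, the liver glutaminase, had 92.6 and 112 in WT, against 78.4 and 83.2 in KO (adjusted p = 0.631), beside its substrate's carrier Slc38a3. Oat, which uses ornithine and is a pericentral gene, had 246 and 318 in WT, against 417 and 413 in KO (0.57, adjusted p = 0.476). Tat, which starts tyrosine breakdown, had 319 and 400 in WT, against 290 and 715 in KO. It was highest in KO replicate 2, as were only 2 of the 30 genes, Tat included, against 31.6% of all genes tested. Gnmt, glycine N-methyltransferase, was the most abundant, with 1538 and 1740 FPKM in WT, against 1568 and 1473 FPKM in KO (adjusted p = 0.900).

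Other plasma membrane amino acid transporters were mostly near the floor. Of 33 listed, 8 reached the minimum, none passed, and 8 were listed at 0 in all 4 libraries. Over the 8 tested the median log2 difference was −0.10, with 3 lower in both KO libraries, against 16.4% of all genes tested, and none higher, against 22.4%. Slc6a13, a carrier of GABA and taurine, was the most abundant at 125 and 118 FPKM in WT, against 130 and 103 FPKM in KO (limma adjusted p = 0.933). Slc3a1, the heavy chain that carries cystine and dibasic amino acids with its partner, had 44.1 and 46.2 in WT, against 23.3 and 45.2 in KO, with KO replicate 1 apart from the rest (adjusted p = 0.744). Slc6a12, the betaine carrier, had 28.7 and 29.1 in WT, against 26.3 and 26.0 in KO (adjusted p = 0.774). Slc6a6, the taurine carrier, had 12.4 and 12.1 in WT, against 9.44 and 11.0 in KO (adjusted p = 0.660), and Slc1a2, the pericentral glutamate carrier, 16.6 and 18.8 in WT, against 21.0 and 18.6 in KO (adjusted p = 0.800). Slc43a2, which encodes the LAT4 carrier related to LAT3, had 1.18 and 1.09 in WT, against 0.821 and 1.59 in KO (adjusted p = 0.983).

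Carriers of the lysosome and mitochondrion had differences of either sign, and none passed. Of 15 listed genes 11 were tested, with 2 higher in both KO libraries, against 22.4% of all genes tested, and 5 lower, against 16.4%. Slc25a44, a mitochondrial carrier of branched-chain amino acids, had 29.2 and 23.1 FPKM in WT, against 19.2 and 16.6 FPKM in KO (log2 difference −0.52, SE 0.15, limma adjusted p = 0.489). Slc25a38, a mitochondrial glycine carrier, had 11.6 and 11.4 in WT, against 14.6 and 16.03 in KO (0.38, adjusted p = 0.469). Slc25a22, a mitochondrial glutamate carrier, had 25.9 and 29.5 in WT, against 34.2 and 37.8 in KO (0.37, adjusted p = 0.565), and Slc25a13, the aspartate-glutamate carrier citrin, had 55.6 and 61.2 in WT, against 49.3 and 46.4 in KO (−0.28, adjusted p = 0.625). Slc25a15, the ornithine carrier of the urea cycle, stayed between 84.4 and 90.5 FPKM in all libraries.

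**Figure D5:**
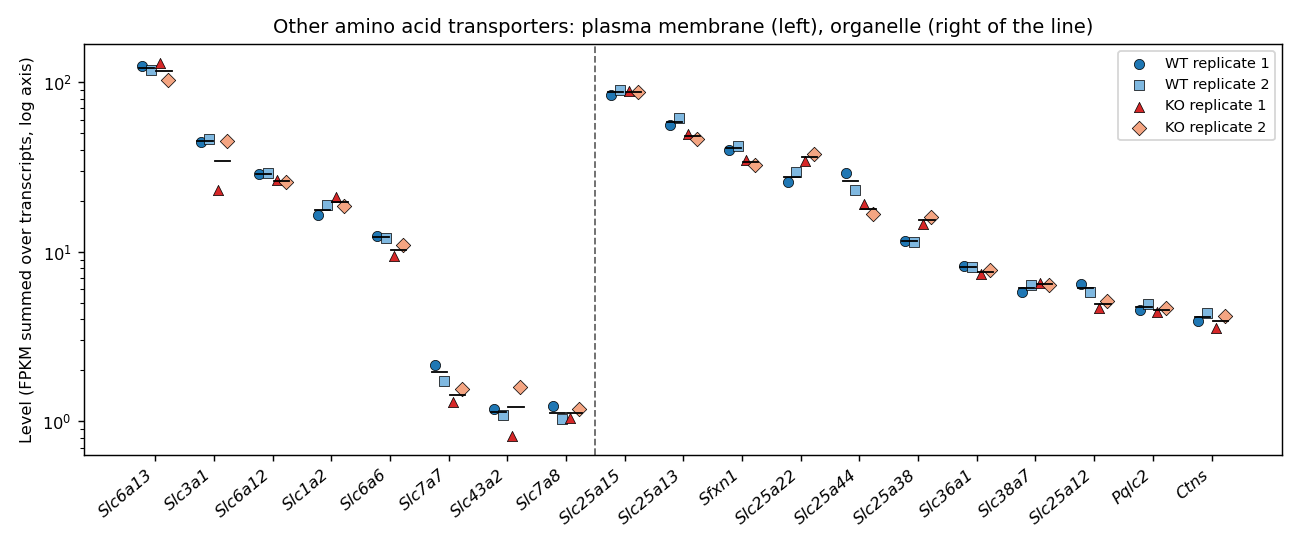
Level (FPKM summed over transcripts, log axis) of the 8 other plasma membrane and 11 organelle amino acid transporters that were tested, in the 2 WT and 2 KO libraries; symbols are libraries and short lines group means. In both KO libraries 3 of the 8 plasma membrane genes are lower and 0 higher. Of the 11 organelle genes 5 are lower, Slc25a44 among them, and 2 are higher, Slc25a38 and Slc25a22. Of all genes tested 16.4% are lower and 22.4% higher. Slc3a1 is low in KO replicate 1 alone (23.3 FPKM).

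Genes with a profile most like that of a member were found by the root mean square difference of log2(FPKM + 1), centred on each gene's mean over the 4 libraries, among the 9820 genes tested. The nearest gene was Arhgef26 for Slc38a2 (difference 0.0544), Slc8b1 for Slc7a2 (0.0532) and Slc2a5 for Slc43a1 (0.0289). Slc2a5, a fructose transporter gene, had 1.66 and 1.88 FPKM in WT, against 1.32 and 0.711 FPKM in KO. For the other members the nearest were Tbc1d15 for Slc38a3, Prr14 for Slc38a4 and Map1s for Slc3a2. Zfp180 was nearest to Slc16a10, Plac8 to Slc1a4 and Rpa2 to Slc6a9. For these members the differences ran from 0.00943 to 0.0265. With 4 libraries such likeness describes these values alone.

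Over the whole series, low values implied 20.6 to 22.9 M (mega) fragments per library. The targeted gene Srebf1 had 63.7 and 58.2 FPKM in WT, against 8.63 and 6.97 FPKM in KO (limma adjusted p = 0.00172). Of 15 hepatocyte markers 14 were tested, at a summed 33317 to 39252 FPKM over the libraries, while Alb was listed at 0 in all 4. Periportal markers had a median log2 difference of −0.30 (14 tested, with 1 higher and 8 lower in both KO libraries) and pericentral markers −0.05 (15 tested, with 4 higher and 3 lower), against 22.4% higher and 16.4% lower of all genes tested, and none of either passed. Among markers of other cells none passed. Endothelial genes were at 71.8 and 75.6 FPKM summed in WT, against 76.5 and 91.3 in KO, stellate cell and fibroblast genes at 52.0 and 57.1 in WT, against 56.1 and 56.5 in KO, and cholangiocyte genes at 30.8 and 29.2 in WT, against 54.9 and 46.8 in KO, where Spp1 alone had 21.3 and 20.2 in WT, against 45.5 and 37.0 in KO. Lymphocyte and neutrophil genes were at 12.8 and 15.2 in WT, against 9.86 and 29.5 in KO. Blood cell genes were at 893 and 296 in WT, against 272 and 545 in KO. Pancreas genes were at 16.8 and 14.0 in WT, against 25.6 and 15.2 in KO. Of the 10 pancreas genes 1 was tested and 7 were at 0 throughout.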

How the data were processed

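Liver mRNA of 2 WT and 2 KO libraries was compared, grouped by the sample titles. The authors deposited a table with 1 FPKM value for each RefSeq transcript in each library, per the file headers. It holds 33170 rows of 23920 genes. The submitters' processing notes name Bowtie, TopHat and mm10 and no versions. Which program made the FPKM values, and whether strand was used, is not given in the sources used here. Rows were summed per gene number, log2(FPKM + 1) was tested with limma 3.58.1 in R 4.3.3 (intensity trend, group as the only term) over genes with a mean of at least 1 FPKM, and p-values were adjusted by Benjamini-Hochberg over all 9820 genes. The log2(FPKM + 1) scale understates changes of low genes. The labels do not say that libraries came from separate animals, so the p-values reflect the spread among these samples alone, and that spread may be technical.

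An exact 0 in such a table can be a failed estimate. Depth was read from steps of low values of single-row genes, using GENCODE transcript lengths: 50.7% to 53.7% of these values lay within 0.1 of a whole fragment, so fragment numbers are approximate and no count test was run. The members and lists were chosen with earlier results of these data known, and the motifs, the promoter window and the 2 promoters shown were chosen after the values were seen. Genes were named by a rule: the members, Srebf1, up to 4 genes by p and the most abundant gene of each list other than the cell type markers, other plasma membrane transporters and Slc3a2 partners with a mean of at least 1 FPKM, and the nearest profiles; Asns, Atf4, Gls2, Slc38a1, Slc38a5, Slc7a1, Slc7a5, Slc7a11, Saa1, Tat, Spp1 and Alb were named after their values were seen. The alternatives tried were a pseudocount of 0.1 or 0.5, no minimum, a stricter minimum of 5 FPKM, scaling by upper quartile or by quantiles, no intensity trend, a replicate block, each library left out, and rows not summed. Coordinates are from RefSeq (GRCm38.p6). Tables and figures used matplotlib 3.10.9, pandas 2.3.3, numpy 2.4.6 and python 3.11.15.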

Additional observations from a re-analysis of the deposited data

How the results depend on the processing

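Under the alternatives that keep all 4 libraries no transporter passed, and each transporter with a value kept its direction (78 values). Slc1a4 and Slc43a1 have none at a minimum of 5 FPKM, and Slc43a1 none with rows not summed. With rows not summed, the row with the highest mean FPKM stood for each gene. Among the lesser rows tested, NM_028247 of Slc16a10 (−0.17), NM_001199218 of Slc38a3 (0.36) and NM_001161413 of Slc3a2 (−0.02) had the sign opposite to their gene. The lesser row NM_023805 of Slc38a3 (−0.53) had the sign of its gene. Fits with 1 library left out assume that the lone library of a genotype varies like the libraries of the other. Transporters past the threshold in such fits are therefore not counted here. With 1 library left out the log2 difference ran from −0.61 to 0.52 for Slc7a2, −0.23 to 0.16 for Slc38a4, −0.10 to 0.24 for Slc3a2 and −0.11 to 0.31 for Slc6a9, each changing sign, while that of Slc38a2 ran from 0.20 to 1.09, Slc1a4 from 0.15 to 0.50, Slc38a3 from −0.46 to −0.02 and Slc43a1 from −0.71 to −0.32. No row of a transporter passed in any fit of rows, including the one without a minimum.

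The count of 7 over all genes (1 higher, 6 lower) was 11 with a pseudocount of 0.1, 0 with no minimum (limma, with 1233 of 16520 genes at an unadjusted p under 0.05), 3 with a minimum of 5 FPKM and 4 with quantile scaling. It ran from 1 to 306 with 1 library left out, 1 without WT replicate 1, 4 without WT replicate 2, 306 without KO replicate 1 (169 higher, 137 lower) and 117 without KO replicate 2 (72 higher, 45 lower). Without either WT library none was higher. The cause was not tested. With a minimum of 5 FPKM, upper-quartile scaling, quantile scaling or no trend none was higher. With the replicate number as a block it was 19 (4 higher, 15 lower), with none of the 9 transporters among them. The labels do not say that a number marks a shared animal or day, and deviations of same-numbered libraries correlated at r = 0.167 across genes, with 2 pairs only. Few fragments limit Slc43a1 and Slc1a4.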
